A study of Homo sapiens with 18 samples.

Results

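The genes described here are 44 genes of the hypoxia response and of glycolysis, taken by gene symbol from a table of 62710 genes. All 44 were found and all 44 passed the filter on low counts, among 17030 genes tested. They fall into 4 groups by role: 5 genes of the oxygen-sensing machinery (HIF1A, EPAS1, ARNT, EGLN1 and EGLN3), 18 targets of the hypoxia-inducible factors (HIF) outside glycolysis, 5 genes of glucose and lactate transport and of the PFKFB regulators, and 16 glycolytic enzymes. Expression was measured by polyA RNA sequencing of MDA-MB-231 spheroids, small aggregates of an established triple-negative breast cancer line of mesenchymal-like character. The study asked how spheroids with and without MMP14, a collagen-cleaving protease of the cell surface, differ before and during growth in collagen. The 18 libraries form 6 groups of 3. Wildtype and MMP14-KO spheroids of 2000 cells were each sampled after 5 days in hanging droplets, or 24 h or 48 h after being embedded in a collagen hydrogel. Spheroids in collagen were released with collagenase at 37 °C and those in droplets were not, so matrix, time, culture format and digestion change together between droplet and collagen. The labels do not say whether the MMP14-KO cells are a clone or a pool, nor whether replicates are separate cultures, so the p-values measure the spread between these libraries, which may be technical.

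When oxygen is low, the prolyl hydroxylases of the EGLN family no longer mark the HIF alpha subunits for destruction. HIF1A or EPAS1 protein then pairs with ARNT and binds short DNA motifs near its target genes. Those targets include most enzymes of glycolysis, which splits glucose to pyruvate and lactate without oxygen. HIF alpha subunits are regulated mainly as proteins, so their mRNA levels do not show HIF activity, and the core of a spheroid is known to receive less oxygen than its rim.

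The HIF motif has the core ACGTG or GCGTG. Both were searched on both strands in windows from 250 bases before to 50 bases after each RefSeq gene start (GRCh38.p14). The windows could be matched for 40 of the 44 genes, with 73 windows in all, and not for NDRG1, BNIP3L, VEGFA and SLC2A3. ACGTG occurred in 30 of 73 windows (41.1%), against 21.4% of all 35116 windows in the table. It occurred in 12 of 22 windows of HIF targets outside glycolysis (54.5%), 15 of 36 of glycolytic enzymes (41.7%), 2 of 9 of transport and PFKFB genes and 1 of 6 of the machinery. GCGTG was in 43.8% of the members' windows and in 36.5% of all windows. By role it was in 12 of 22 windows of HIF targets outside glycolysis, 5 of 9 of transport and PFKFB genes and 2 of 6 of the machinery. In glycolytic enzymes it was in 13 of 36 windows (36.1%), near the share of all windows. A match describes the letters only and is not a measured binding site. The 250 bases upstream of 4 genes are printed 5′ to 3′ on the gene's own strand because these genes hold ACGTG and recur in the results. PGK1 was higher in MMP14-KO spheroids in all 3 conditions, DDIT4 and P4HA1 in some of them, and LDHA fell in collagen. Capitals mark ACGTG or its reverse complement CACGT, and the palindrome CACGTG counts on both strands. In PGK1 (plus strand, chrX:78103998-78104247) the matches begin 202 and 183 bases before the start. In DDIT4 (plus strand, chr10:72273674-72273923) the match begins 125 bases before it, and in P4HA1 (minus strand, chr10:73096867-73097116) 86 bases before it. LDHA (plus strand, chr11:18394313-18394562) has 5 matches, of which 4 come from the pair of palindromes.
PGK1: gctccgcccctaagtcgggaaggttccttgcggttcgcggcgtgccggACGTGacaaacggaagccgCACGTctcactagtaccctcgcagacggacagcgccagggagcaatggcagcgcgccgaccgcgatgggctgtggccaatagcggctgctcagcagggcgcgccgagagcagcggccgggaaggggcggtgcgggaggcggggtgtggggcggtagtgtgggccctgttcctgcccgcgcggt
DDIT4: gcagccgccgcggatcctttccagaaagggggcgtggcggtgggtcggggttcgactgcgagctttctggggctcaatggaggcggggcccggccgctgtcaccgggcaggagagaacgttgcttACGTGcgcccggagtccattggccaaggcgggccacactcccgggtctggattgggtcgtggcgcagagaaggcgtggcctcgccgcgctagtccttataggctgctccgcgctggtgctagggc
P4HA1: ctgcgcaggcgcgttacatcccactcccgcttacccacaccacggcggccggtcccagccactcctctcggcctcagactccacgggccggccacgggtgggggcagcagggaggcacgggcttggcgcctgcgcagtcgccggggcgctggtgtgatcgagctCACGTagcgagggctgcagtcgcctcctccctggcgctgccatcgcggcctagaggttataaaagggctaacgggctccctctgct
LDHA: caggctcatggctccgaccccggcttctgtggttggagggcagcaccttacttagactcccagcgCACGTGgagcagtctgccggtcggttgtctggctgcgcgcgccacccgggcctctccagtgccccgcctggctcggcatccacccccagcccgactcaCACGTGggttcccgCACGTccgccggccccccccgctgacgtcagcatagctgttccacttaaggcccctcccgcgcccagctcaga

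Total counts ran from 19819401 to 33352163 per library, and levels are given as CPM (counts per 1e6 counts) scaled by TMM. MMP14 itself stood at 1284 to 2249.7 CPM in the 9 Wildtype libraries and at 138 to 166 CPM in the 9 MMP14-KO libraries. All 6 markers of the line were above 10 CPM in every library. Of 9 hormone receptor and luminal markers 4 were under 1 CPM and 3 over 10 CPM in every library, with a sum of 813 to 989 CPM. Of 8 fibroblast markers 3 were under 1 CPM and 2 over 10 CPM (sum 33.9 to 59.6 CPM), and of 8 leukocyte markers 4 were under 1 CPM, 3 of them at 0, and 1 was over 10 CPM (sum 102 to 151 CPM). Of 7 endothelial markers 5 were under 1 CPM and 0 over 10 CPM, and their sum was 16.8 to 36.5 CPM in Wildtype and 25.8 to 41.9 CPM in MMP14-KO libraries. The part of these markers in the results was not tested. Mitochondrially encoded RNA made up 2.10 to 2.65% of counts in Wildtype droplets and 0.971 to 1.74% in MMP14-KO droplets, and 2.34 to 4.18% in collagen. In bulk RNA, fewer cells expressing a gene and less RNA per cell cannot be told apart.

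Glycolytic enzymes took 8 of the first 9 places by level per kilobase, and ENO2, HK2, PFKM and ALDOC were in the lower part of the order. Per kilobase of transcript in Wildtype droplets, the order began with ENO1 (1458 ± 57.2 CPM per kb, SD, n = 3), LDHA (1399 ± 38.2), PKM (1318 ± 78.9) and GAPDH (1123 ± 96.6). ENO1 and LDHA, and LDHA and PKM, differed by less than their summed SDs, and GAPDH by more from PKM. VEGFA, an angiogenic growth factor, stood first of the HIF targets by this measure at 461 ± 17.9 CPM per kb, followed by NDRG1 at 196 ± 10.9. This order rests on the lengths used, 1199 bases for VEGFA and 3755 for NDRG1. By CPM, NDRG1 (737 ± 40.8) was above VEGFA (553 ± 21.4). HIF1A stood at 210.2 ± 10.2 and EPAS1 at 28.1 ± 1.16 CPM per kb. The lowest per kilobase were ALDOC (3.09 ± 0.351), PDK1 (1.71 ± 0.121) and CA9 (1.56 ± 0.314), the last a membrane carbonic anhydrase often used as a hypoxia marker. PDK1 ranked so low through a length of 14193 bases, and its 24.2 ± 1.72 CPM was near the 24.6 ± 2.24 CPM of EGLN3. The 16 glycolytic enzymes together held 1.44 to 1.88% of all counts of a library.

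**Figure D1:**
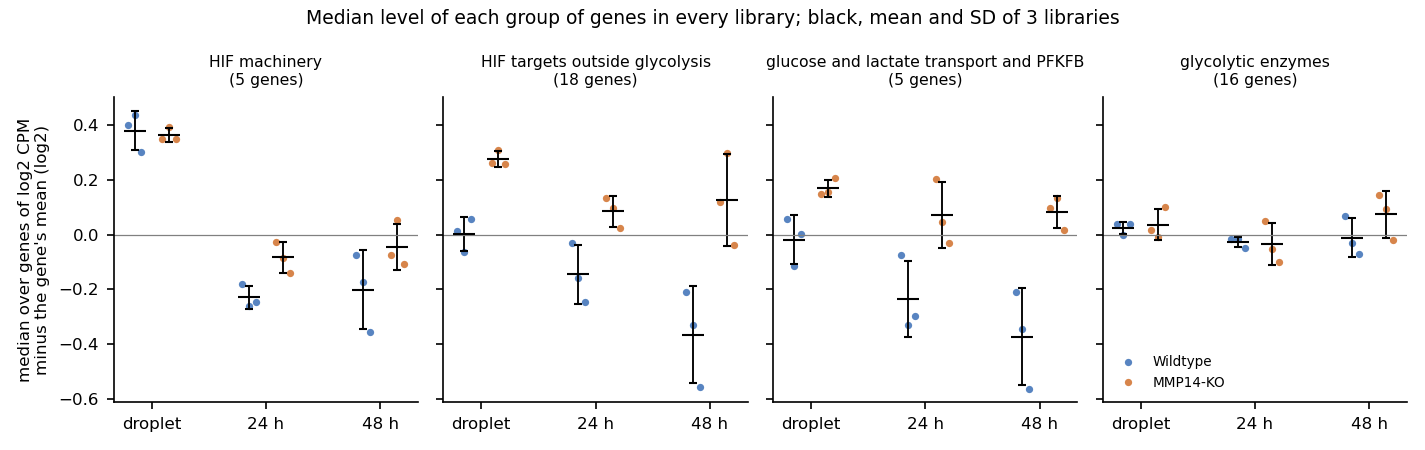
For each library, the median over the genes of a group of log2 CPM minus that gene's mean over all 18 libraries (y axis, log2), by condition (x axis), with the mean and SD of 3 libraries in black. HIF targets outside glycolysis lie higher in MMP14-KO than in Wildtype libraries at each condition, while the medians of the glycolytic enzymes stay between -0.10 and 0.15.

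Wildtype spheroids in collagen had less mRNA of the oxygen-sensing machinery and of most HIF targets that changed than in droplets, while the glycolytic enzymes split. A gene is said to rise or fall where edgeR's quasi-likelihood test gave a Benjamini-Hochberg adjusted p under 0.05. At 24 h, 9 of the 44 genes rose, against 27.8% of all genes tested, and 19 fell (43.2%), against 28.7% of all genes. At 48 h, 6 rose (27.7% of all genes) and 22 fell (27.5% of all genes). By role, 5 of 5 machinery genes fell at both times. Of 18 HIF targets outside glycolysis, 3 rose and 7 fell at 24 h, and 0 rose and 10 fell at 48 h. Of 16 glycolytic enzymes, 5 rose and 5 fell at 24 h, and 5 rose and 4 fell at 48 h. Of 5 transport and PFKFB genes, 1 rose and 2 fell at 24 h, and 1 rose and 3 fell at 48 h. The median log2 fold change at 48 h was -0.61 over the machinery, -0.30 over the HIF targets and 0.0089 over the glycolytic enzymes, against 0.0048 over all genes tested. Both comparisons use the same droplet libraries. Leaving out Wildtype droplet replicate 1 or Wildtype 24 h replicate 2 lowered the count of falling HIF targets at 24 h from 7 to 4. The rising ones went from 3 to 1 without Wildtype droplet replicate 1 or 2, Wildtype 24 h replicate 1 or 3 or Wildtype 48 h replicate 2. At 48 h the rising glycolytic enzymes went from 5 to 3 without Wildtype 48 h replicate 1, and the falling ones from 4 to 2 without Wildtype 48 h replicate 3. The calls of ARNT, ADM, ANGPTL4, BNIP3L, MXI1, ERO1A, HK1 and TPI1 at 24 h, and of ARNT, ANKRD37, PFKFB4, HK1, GPI, ALDOA and LDHA at 48 h, were each lost in at least 1 fit with a library left out.

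In MMP14-KO spheroids, the machinery and HIF targets again fell more often than they rose. At 24 h, 8 of 44 genes rose (25.5% of all genes tested) and 19 fell (25.7% of all genes). At 48 h, 9 rose (25.8% of all genes) and 13 fell (23.6% of all genes). The machinery fell in 4 of 5 genes at 24 h and in 3 at 48 h. HIF targets outside glycolysis rose in 2 and fell in 7 of 18 at 24 h (11.1 and 38.9%), and rose in 2 and fell in 5 at 48 h (11.1 and 27.8%). The fallen share at 48 h was near the 23.6% of all genes. Glycolytic enzymes rose in 5 and fell in 7 of 16 at 24 h (31.2 and 43.8%), and rose in 6 and fell in 3 at 48 h (37.5 and 18.8%). Without MMP14-KO 24 h replicate 3 the falling glycolytic enzymes at 24 h numbered 4, and without MMP14-KO 48 h replicate 2 the falling HIF targets at 48 h numbered 9. Lost in at least 1 fit with a library left out were the calls of EGLN3, CA9, GPI, ALDOA, PGK1 and PKM at 24 h, and of CA12, ALDOC and PKM at 48 h.

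**Figure D2:**
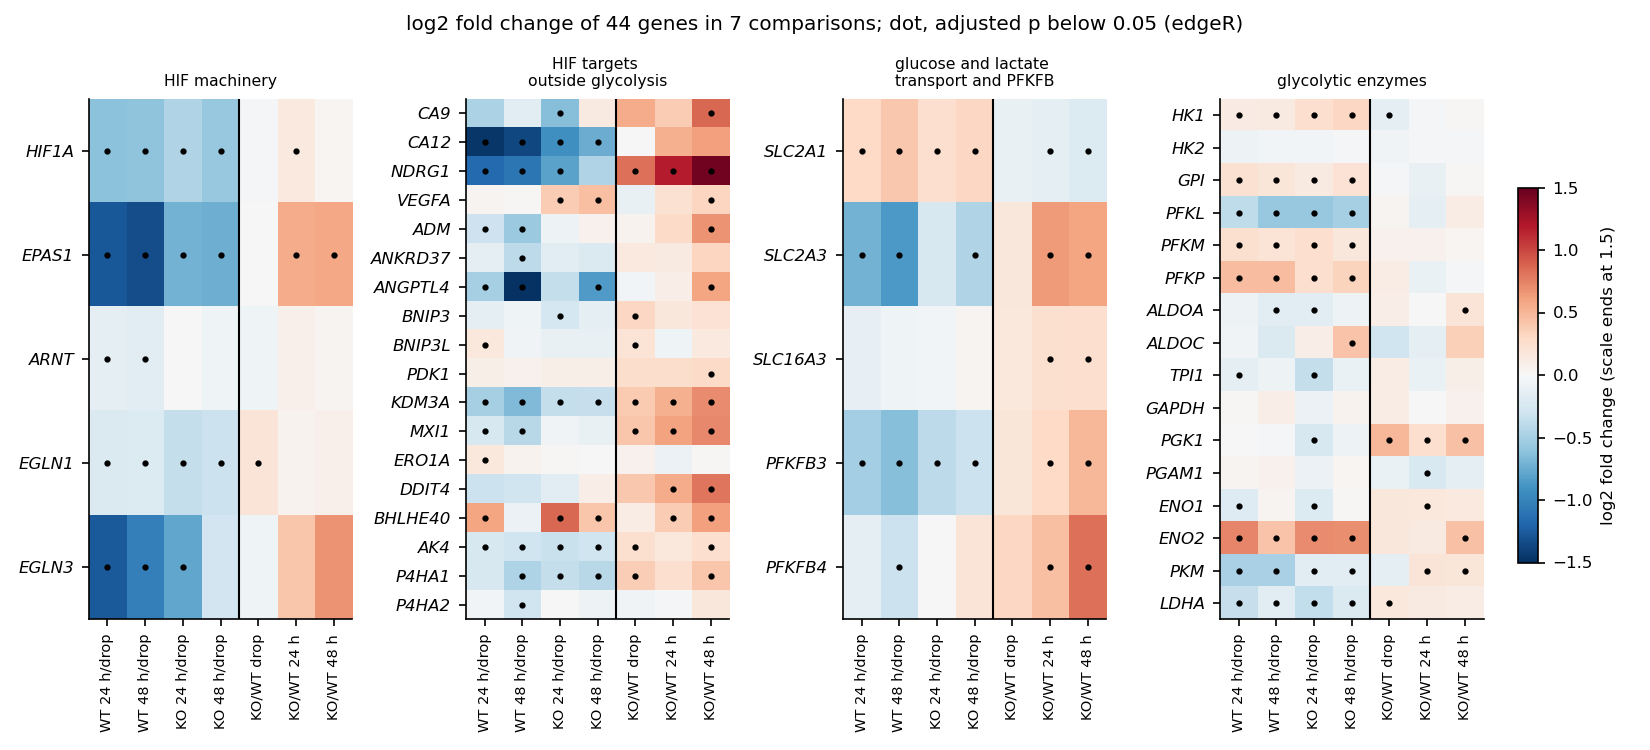
log2 fold change (colour) of each of the 44 genes (rows, by role) in 4 comparisons of collagen with droplets (left of the line) and 3 comparisons of MMP14-KO with Wildtype (right of it); WT is Wildtype, KO is MMP14-KO, and a dot marks an adjusted p under 0.05 by edgeR. The HIF targets are more often blue than red on the left and red on the right, the glycolytic enzymes are of mixed sign on the left, and HK2 and GAPDH carry no dot.

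EPAS1 and EGLN3 had the largest falls of the machinery at 24 h. EPAS1 is the paralogue of HIF1A. In Wildtype spheroids it stood at 151, 145 and 139 CPM in droplets, 71.1, 56.9 and 52.3 CPM at 24 h and 58.9, 62.3 and 52.1 CPM at 48 h. In MMP14-KO spheroids it stood at 142, 158 and 134 CPM in droplets, 98.5, 85.3 and 80.9 at 24 h and 80.3, 96.0 and 83.9 at 48 h. Every collagen library was below every droplet library, and the 2 genotypes overlapped in droplets but not in collagen. The log2 fold change was -1.28 (SE 0.11, adjusted p = 4.06e-08) at 24 h in Wildtype and -0.71 (SE 0.11, adjusted p = 3.44e-05) in MMP14-KO spheroids, by edgeR. HIF1A, the oxygen-regulated alpha subunit, fell in Wildtype spheroids from 836, 857 and 779.6 CPM in droplets to 553, 528 and 533 at 24 h and 567, 562 and 494 at 48 h. In MMP14-KO spheroids it fell from 806, 830.3 and 806 CPM in droplets to 621, 595 and 574 at 24 h and 529, 557 and 568 at 48 h. Its droplet and collagen libraries did not overlap in either genotype, with log2 fold changes of -0.61 and -0.61 in Wildtype and -0.45 and -0.56 in MMP14-KO spheroids. EGLN3, a prolyl hydroxylase that is itself a HIF target, had 26.7, 22.3 and 24.8 CPM in Wildtype droplets, 14.1, 7.86 and 8.87 at 24 h and 15.2, 11.1 and 9.80 at 48 h. In MMP14-KO spheroids the values were 22.8, 24.9 and 22.6 CPM in droplets, 13.6, 14.4 and 12.8 at 24 h and 18.2, 26.9 and 12.7 at 48 h. At 48 h MMP14-KO replicate 2 lay above all 3 MMP14-KO droplet libraries, so these groups overlapped, and the adjusted p there was 0.354. EGLN1, the main HIF prolyl hydroxylase, fell by 0.22 and 0.21 on the log2 scale in Wildtype and by 0.35 and 0.32 in MMP14-KO spheroids. ARNT, the constitutive partner, moved by -0.14 and -0.17 in Wildtype and was not called in MMP14-KO spheroids.

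**Figure D3:**
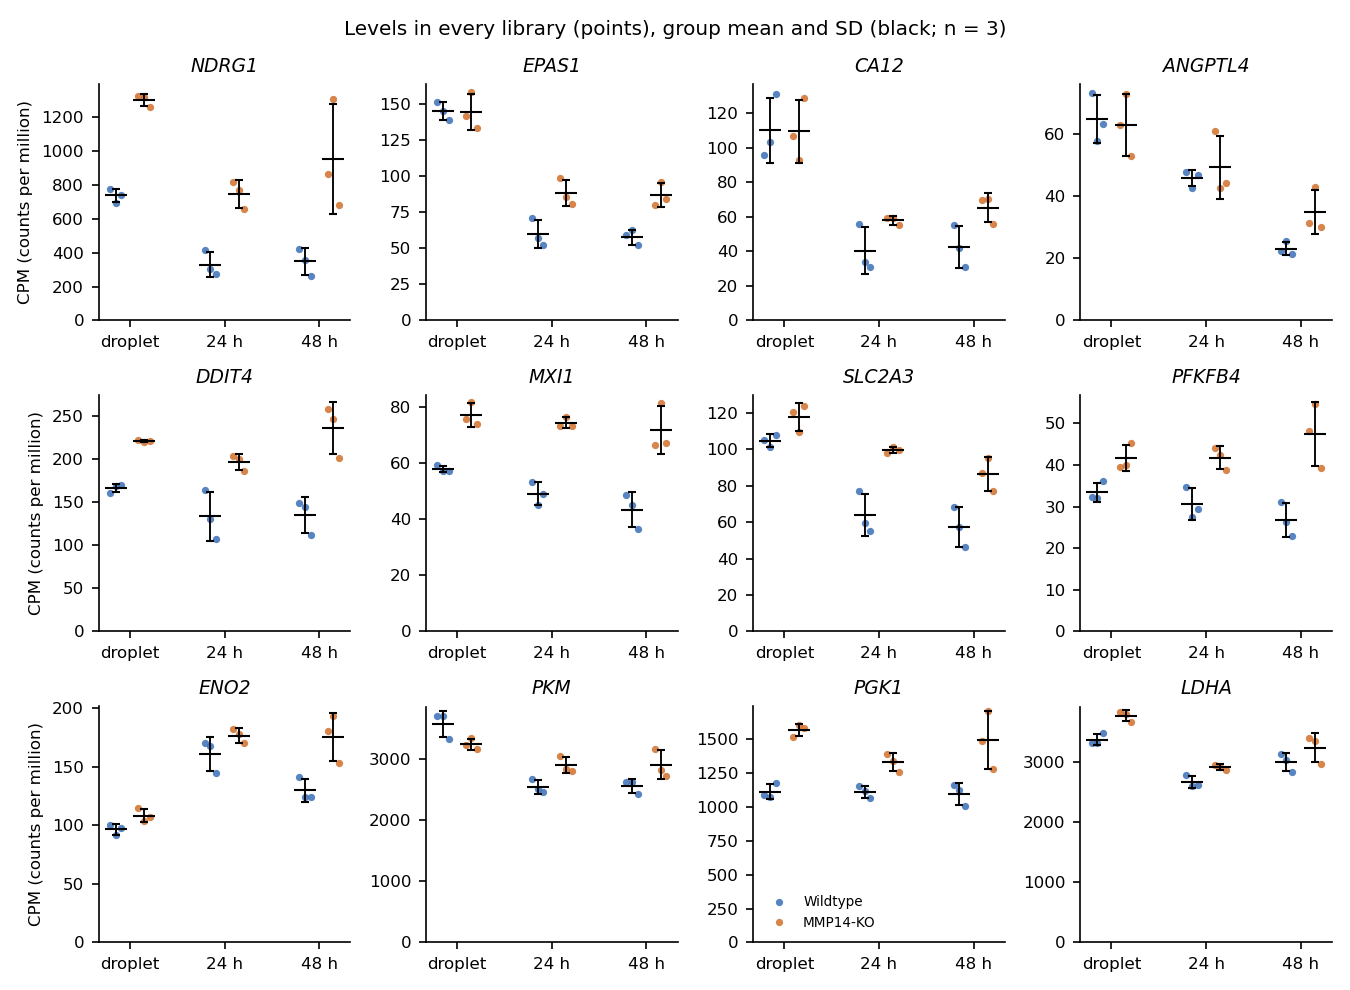
CPM of 12 genes (y axis, from 0) in every library by condition (x axis), Wildtype in blue and MMP14-KO in orange, with group means and SDs in black. NDRG1, MXI1 and PGK1 lie higher in MMP14-KO libraries in each condition, and ENO2 is higher in collagen in both genotypes. EPAS1 overlaps between the genotypes in droplets alone, and CA12 in droplets and at 24 h.

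Among HIF targets outside glycolysis, CA12, NDRG1 and ANGPTL4 had the largest falls in Wildtype spheroids at 48 h. CA12, a membrane carbonic anhydrase, stood at 95.6, 103 and 131 CPM in Wildtype droplets, 55.9, 33.7 and 31.2 at 24 h and 55.3, 41.8 and 30.9 at 48 h. Its MMP14-KO values were 107, 92.6 and 129 in droplets, 59.5, 59.3 and 55.1 at 24 h and 69.8, 70.4 and 55.6 CPM at 48 h. All collagen libraries lay under all droplet libraries, with a log2 fold change of -1.46 (SE 0.24, adjusted p = 1.88e-04) at 24 h in Wildtype and -0.92 (SE 0.24, adjusted p = 0.00586) in MMP14-KO spheroids (edgeR). NDRG1, a stress-induced gene long used as a hypoxia marker, stood at 777, 695 and 740.2 CPM in Wildtype droplets, 413, 304 and 271 at 24 h and 424, 356 and 264 at 48 h. The MMP14-KO libraries had 1325, 1321 and 1261 CPM in droplets, 817, 767 and 658 at 24 h and 866, 1309 and 679 at 48 h. Wildtype collagen libraries were all under Wildtype droplets, while MMP14-KO replicate 2 at 48 h lay within the droplet range of its genotype. NDRG1 fell by 1.16 and 1.08 on the log2 scale in Wildtype and by 0.80 at 24 h in MMP14-KO spheroids, where its 48 h difference of -0.45 had an adjusted p of 0.12. ANGPTL4, a secreted inhibitor of lipoprotein lipase, had 73.3, 57.9 and 63.3 CPM in Wildtype droplets, 47.7, 42.7 and 46.8 at 24 h and 22.4, 25.5 and 21.4 at 48 h. The MMP14-KO values were 62.8, 72.8 and 52.9 CPM in droplets, 60.9, 42.5 and 44.4 at 24 h and 31.2, 43.0 and 30.2 at 48 h. The 3 Wildtype groups did not overlap each other, whereas MMP14-KO droplets and 24 h did, and the log2 fold change at 48 h was -1.49 (SE 0.17, adjusted p = 4.46e-06) in Wildtype and -0.85 (SE 0.17, adjusted p = 7.09e-04) in MMP14-KO spheroids (edgeR).

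Smaller falls ran through several other targets. KDM3A, a histone demethylase, had 144, 126 and 137 CPM in Wildtype droplets, 105, 91.6 and 91.5 at 24 h and 97.8, 82.8 and 77.3 at 48 h. MMP14-KO spheroids had 181, 176 and 178 CPM in droplets, 136, 146 and 134 at 24 h and 136, 156 and 129 at 48 h. It fell in both genotypes at both times, by 0.34 to 0.66 on the log2 scale, with no overlap of collagen and droplet libraries. MXI1, an antagonist of MYC, had 59.3, 57.1 and 57.4 CPM in Wildtype droplets, 53.3, 45.2 and 49.0 at 24 h and 48.7, 45.0 and 36.6 at 48 h. MMP14-KO spheroids had 75.9, 81.9 and 73.9 CPM in droplets, 73.3, 76.7 and 73.4 at 24 h and 66.6, 81.7 and 67.2 at 48 h. It fell in Wildtype spheroids (-0.24 and -0.41) and was not called in MMP14-KO spheroids (-0.053 and -0.11). AK4, a mitochondrial adenylate kinase, fell by 0.24 to 0.33 in all 4 comparisons. P4HA1, an alpha subunit of the collagen prolyl hydroxylase, fell in both genotypes at 48 h (-0.46 and -0.41), as did its relative P4HA2 in Wildtype spheroids alone (-0.30, against -0.08, not called, in MMP14-KO). P4HA2 stood at 111, 110.2 and 122 CPM in Wildtype droplets, 123, 105 and 106 at 24 h and 93.3, 96.6 and 88.8 at 48 h. MMP14-KO spheroids had 111, 111 and 110.1 CPM in droplets, 108, 108 and 113 at 24 h and 106, 112 and 94.9 at 48 h. The Wildtype 48 h libraries were the lowest of the 6 groups but for 1 MMP14-KO library at 48 h, which lay among them.

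The HIF targets that rose were BHLHE40 in both genotypes, VEGFA in MMP14-KO spheroids, and BNIP3L (0.16) and the oxidoreductase ERO1A (0.16) in Wildtype spheroids at 24 h. The call of BNIP3L was lost with RLE scaling, library totals and DESeq2 (adjusted p = 0.0524, 0.0833 and 0.0506) and that of ERO1A with library totals (adjusted p = 0.0713, edgeR), which leaves 1 of 18 HIF targets rising under that scaling. BHLHE40, a transcriptional repressor, had 125, 124 and 131 CPM in Wildtype droplets, 233, 164 and 175 at 24 h and 127, 123 and 108 at 48 h. MMP14-KO spheroids had 138, 128 and 145 CPM in droplets, 266, 238 and 243 at 24 h and 183, 199 and 164 at 48 h. The 24 h libraries were above all droplet libraries in both genotypes, with log2 fold changes of 0.59 (SE 0.11, adjusted p = 2.06e-04) and 0.86 (SE 0.11, adjusted p = 6.37e-06) by edgeR. VEGFA had 578, 542 and 539.9 CPM in Wildtype droplets, 647, 559.9 and 502 at 24 h and 585, 547 and 551 at 48 h, with overlapping groups. It had in MMP14-KO spheroids 527, 479.9 and 524 CPM in droplets, 733, 660.3 and 603 at 24 h and 677, 791 and 628 at 48 h, and its collagen libraries were all above its droplet libraries. The log2 fold changes of VEGFA in MMP14-KO spheroids were 0.38 (SE 0.09, adjusted p = 0.00167) and 0.45 (SE 0.09, adjusted p = 4.05e-04) by edgeR, against 0.042 and 0.02 in Wildtype spheroids, which were not called. DDIT4, an inhibitor of the growth kinase mTOR, had 161, 169 and 169.6 CPM in Wildtype droplets, 164, 130.3 and 107 at 24 h and 149, 145 and 112 at 48 h. It had 222, 219.6 and 221 CPM in droplets, 203, 199.9 and 186 at 24 h and 259, 247 and 202 at 48 h in MMP14-KO spheroids and was not called against droplets in either genotype (adjusted p = 0.061 and 0.079 in Wildtype and 0.322 and 0.594 in MMP14-KO, edgeR).

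The glucose transporters moved in opposite directions in Wildtype spheroids. SLC2A1, the widespread basal glucose transporter, had 437, 396 and 415 CPM in Wildtype droplets, 512, 511 and 507 at 24 h and 532, 564 and 554 at 48 h. MMP14-KO spheroids had 381, 379 and 398 CPM in droplets, 480.5, 452 and 449 at 24 h and 478, 502 and 455 at 48 h. Collagen libraries were above droplet libraries in both genotypes, with log2 fold changes of 0.25 to 0.40. SLC2A3, a high-affinity glucose transporter, had 105, 101 and 108 CPM in Wildtype droplets, 77.2, 59.7 and 55.3 at 24 h and 68.5, 57.3 and 46.4 at 48 h. MMP14-KO spheroids had 120.5, 109 and 124 CPM in droplets, 98.0, 101 and 99.4 at 24 h and 87.0, 95.5 and 77.1 at 48 h. It fell by 0.71 and 0.87 on the log2 scale in Wildtype spheroids and by 0.45 at 48 h in MMP14-KO spheroids, where the 24 h difference of -0.24 was not called. Per kilobase, SLC2A1 made up 80.9% ± 0.624 (SD, n = 3) of the SLC2A1 and SLC2A3 total in Wildtype droplets and 91.1% ± 1.76 at 48 h, and 77.8% ± 0.867 and 85.5% ± 0.722 in MMP14-KO spheroids. PFKFB3 makes the sugar phosphate that activates phosphofructokinase. It had 203, 169 and 159 CPM in Wildtype droplets, 137, 121 and 116 at 24 h and 118, 119 and 103 at 48 h. MMP14-KO spheroids had 202, 226 and 175 CPM in droplets, 156, 154 and 149 at 24 h and 162, 166 and 154 at 48 h. It fell in all 4 comparisons, by 0.32 to 0.64 on the log2 scale. Its relative PFKFB4 had 32.2, 32.0 and 36.1 CPM in Wildtype droplets, 34.8, 27.4 and 29.3 at 24 h and 31.2, 26.3 and 23.0 at 48 h. MMP14-KO spheroids had 39.6, 40.0 and 45.2 CPM in droplets, 44.2, 42.4 and 38.8 at 24 h and 48.3, 54.6 and 39.3 at 48 h. Only its Wildtype fall at 48 h was called among these 4 comparisons (-0.32, adjusted p = 0.0367, edgeR). SLC16A3, a lactate exporter, was called in none of them, with log2 differences from -0.12 to 0.037.

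The glycolytic enzymes did not move as a block. PFKP and PFKM rose where PFKL fell, and at 24 h ENO2 rose where ENO1 fell. In Wildtype spheroids the risen and fallen shares of the 16 enzymes were near those of all genes tested, at both times. ENO2, the minor enolase, had 101, 91.4 and 97.8 CPM in Wildtype droplets, 171, 168 and 144 at 24 h and 141, 124 and 124 at 48 h. MMP14-KO spheroids had 115, 103 and 107 CPM in droplets, 182, 178 and 170.1 at 24 h and 181, 193 and 153 at 48 h. Every collagen library was above every droplet library of its genotype, and the 24 h log2 fold changes were 0.74 (SE 0.078, adjusted p = 9.30e-08) and 0.71 (SE 0.078, adjusted p = 2.70e-07) by edgeR. ENO1, the main enolase, had 3556, 3416 and 3287 CPM in Wildtype droplets, 2955, 3056 and 2926 at 24 h and 3593, 3549.8 and 3382 at 48 h. MMP14-KO spheroids had 3796, 4004 and 3712 CPM in droplets, 3438, 3323 and 3213 at 24 h and 4262, 3772 and 3588 at 48 h. It fell at 24 h (-0.20 and -0.21) and stood near the droplet level at 48 h (0.037 and 0.014, not called). Per kilobase, ENO2 was 2.29% ± 0.118 of the 2 enolases in Wildtype droplets, 4.29% ± 0.326 at 24 h and 2.98% ± 0.169 at 48 h, and 2.29% ± 0.179, 4.22% ± 0.0281 and 3.63% ± 0.386 in MMP14-KO spheroids.

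Phosphofructokinase, the committed step of glycolysis, shifted from its liver-type to its platelet-type gene. PFKP, the platelet type, had 236, 239 and 257 CPM in Wildtype droplets, 344, 337 and 327 at 24 h and 336, 336 and 335 at 48 h. MMP14-KO spheroids had 254, 254 and 283 CPM in droplets, 315, 321 and 307 at 24 h and 360.3, 325 and 306 at 48 h. All 12 collagen libraries had more PFKP than the droplet libraries of their genotype. PFKL, the liver type, had 230.1, 203 and 230.0 CPM in Wildtype droplets, 167, 177 and 163 at 24 h and 152, 149 and 145 at 48 h. MMP14-KO spheroids had 218, 237 and 228 CPM in droplets, 163, 153 and 144 at 24 h and 179.6, 158 and 143 at 48 h. For PFKL the order was the reverse, again with no overlap in either genotype. PFKP rose by 0.26 to 0.46 and PFKL fell by 0.38 to 0.57 on the log2 scale over the 4 comparisons. PFKM, the muscle type, had 67.7, 70.6 and 67.0 CPM in Wildtype droplets, 82.8, 78.5 and 82.2 at 24 h and 80.2, 77.0 and 79.3 at 48 h. MMP14-KO spheroids had 72.9, 70.6 and 70.4 CPM in droplets, 86.5, 82.2 and 85.4 at 24 h and 84.1, 75.8 and 81.4 at 48 h. It rose by 0.17 to 0.25. The share of PFKL in the 3 genes per kilobase went from 40.1% ± 1.75 to 25.3% ± 0.449 in Wildtype and from 39.2% ± 1.58 to 26.9% ± 0.850 in MMP14-KO spheroids between droplets and 48 h.

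**Figure D4:**
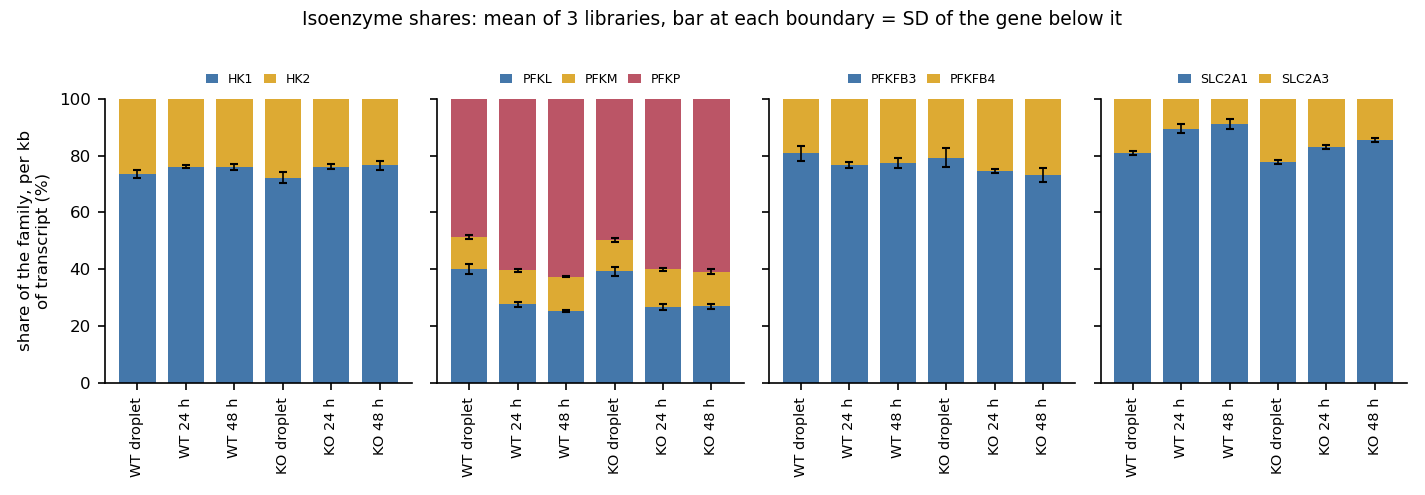
Share of each gene in its isoenzyme or transporter family (y axis, % of summed CPM per kilobase of transcript) in the 6 groups (x axis), as means of 3 libraries, with the SD of the gene below each boundary as an error bar. PFKL gives way to PFKP in collagen in both genotypes, and SLC2A3 keeps a larger share in MMP14-KO than in Wildtype libraries in collagen.

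PKM and LDHA, which make pyruvate and turn it to lactate, both fell. PKM had 3708, 3703 and 3334 CPM in Wildtype droplets, 2677, 2510.4 and 2456 at 24 h and 2627, 2629 and 2433 at 48 h. MMP14-KO spheroids had 3232, 3344 and 3169 CPM in droplets, 3059.8, 2848 and 2812 at 24 h and 3176, 2824 and 2723 at 48 h. Wildtype collagen libraries lay under all droplet libraries, while MMP14-KO libraries overlapped between droplets and 48 h. The log2 fold changes were -0.49 (SE 0.062, adjusted p = 5.48e-07) in Wildtype and -0.16 (SE 0.062, adjusted p = 0.0337) in MMP14-KO spheroids at 24 h by edgeR. LDHA had 3328, 3326 and 3487 CPM in Wildtype droplets, 2785, 2604 and 2616 at 24 h and 3133, 3038 and 2845 at 48 h. MMP14-KO spheroids had 3843, 3814 and 3675 CPM in droplets, 2960.1, 2931 and 2872 at 24 h and 3412, 3352 and 2969 at 48 h. It was lowest at 24 h in both genotypes, with log2 fold changes of -0.34 and -0.37. HK1, the broadly expressed hexokinase, had 267, 273 and 242 CPM in Wildtype droplets, 286, 279 and 286 at 24 h and 292, 293 and 274 at 48 h. MMP14-KO spheroids had 230.3, 242 and 232 CPM in droplets, 282, 276 and 281 at 24 h and 302, 293 and 277 at 48 h. It rose in all 4 comparisons, by 0.12 to 0.31. HK2, the hexokinase usually linked to tumours and to HIF, had 153, 148 and 151 CPM in Wildtype droplets, 144, 142 and 140.2 at 24 h and 154, 139.7 and 144 at 48 h. MMP14-KO spheroids had 144, 134 and 157 CPM of HK2 in droplets, 145, 144 and 133 at 24 h and 136, 157 and 135 at 48 h, overlapping the Wildtype values. HK2 and GAPDH were called in none of the 7 comparisons of collagen with droplets or of the genotypes. GPI, which isomerises glucose phosphate, rose by 0.14 to 0.23 in all 4. TPI1, the triose isomerase, had 579, 561 and 599.5 CPM in Wildtype droplets, 524, 528 and 515 at 24 h and 589, 538 and 517 at 48 h. MMP14-KO spheroids had 623, 642 and 608 CPM in droplets, 508, 491 and 467 at 24 h and 630.1, 566 and 545 at 48 h. It fell at 24 h in both genotypes (-0.15 and -0.35) and was not called at 48 h. ALDOA, the main aldolase, had 828, 801 and 837 CPM in Wildtype droplets, 785, 791 and 759 at 24 h and 765, 740.3 and 688 at 48 h. MMP14-KO spheroids had 875, 892 and 880.0 CPM in droplets, 837, 757 and 752 at 24 h and 881, 856 and 780.3 at 48 h. It fell in Wildtype at 48 h (-0.17) and in MMP14-KO spheroids at 24 h (-0.17). ALDOC, the brain-type aldolase, had 6.92, 5.74 and 5.68 CPM in Wildtype droplets, 6.13, 5.40 and 6.05 at 24 h and 5.99, 5.97 and 3.67 at 48 h. MMP14-KO spheroids had 4.96, 4.97 and 4.95 CPM in droplets, 6.32, 4.54 and 5.12 at 24 h and 7.58, 7.0 and 5.35 at 48 h. It made up 0.453 to 0.633% of ALDOA and ALDOC per kilobase over the group means and, of the 4 comparisons with droplets, passed in MMP14-KO spheroids at 48 h (0.43, adjusted p = 0.0374, edgeR).

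Between the first and the second day in collagen, 7 of the 44 genes changed in Wildtype and 3 in MMP14-KO spheroids. In Wildtype spheroids 2 of 44 rose (6.32% of all genes tested) and 5 fell (6.88% of all genes). ANGPTL4 and BHLHE40 fell most, by 0.99 and 0.68 on the log2 scale, and 2 genes rose, ENO1 by 0.24 (SE 0.058, adjusted p = 0.00886) and LDHA by 0.17 (SE 0.055, adjusted p = 0.0419), by edgeR. ENO2, P4HA2 and the mitophagy receptor BNIP3L fell by 0.31, 0.26 and 0.21. The 48 h and 24 h libraries did not overlap for any of these 7 genes, which adds no support, since the test on these libraries picked them. The calls of BNIP3L, P4HA2, ENO2 and LDHA were each lost in at least 1 fit with a library left out. Scaling by library totals instead of TMM moved the split from 2 up and 5 down to 1 up and 6 down. Leaving out Wildtype 24 h replicate 2 or Wildtype 48 h replicate 2 left 4 calls, and without Wildtype 24 h replicate 1 the falling HIF targets went from 4 to 2. In MMP14-KO spheroids 2 rose (2.07% of all genes) and 1 fell (1.73% of all genes). TPI1 and ENO1 rose by 0.25 and 0.22 and BHLHE40 fell by 0.45. The count was 1 without MMP14-KO 24 h replicate 1 and 0 without MMP14-KO 24 h replicate 2 or 3 or MMP14-KO 48 h replicate 1.

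The HIF targets outside glycolysis that were called between the genotypes were all higher in MMP14-KO spheroids. The median difference of the glycolytic enzymes was smaller in each condition. In droplets 10 of 44 genes were higher (7.7% of all genes tested) and 1 was lower (9.7% of all genes). At 24 h 14 were higher (13.7% of all genes) and 2 lower (15.7% of all genes). At 48 h 21 were higher (14.4% of all genes) and 1 lower (15.1% of all genes). HIF targets outside glycolysis were higher in 7, 5 and 12 of 18 in droplets, at 24 h and at 48 h, and lower in 0 each time. Glycolytic enzymes were higher in 2, 3 and 4 of 16 and lower in 1, 1 and 0. Transport and PFKFB genes were higher in 0, 4 and 4 of 5. The median log2 difference of the HIF targets was 0.22, 0.25 and 0.50, that of the glycolytic enzymes 0.080, -0.0068 and 0.096, and that of all genes tested -0.0013, 0.0049 and 0.00084. With library totals in place of TMM the higher share of all calls moved to 61.9% (from 46.5%) at 24 h and to 64.3% (from 48.9%) at 48 h. That of the 44 genes moved to 95.2% (from 87.5%) and to 96.6% (from 95.5%). Effects of the missing gene and other differences between the 2 cell populations cannot be told apart. 4 genes were higher in all 3 conditions: NDRG1, KDM3A, MXI1 and PGK1.

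**Figure D5:**
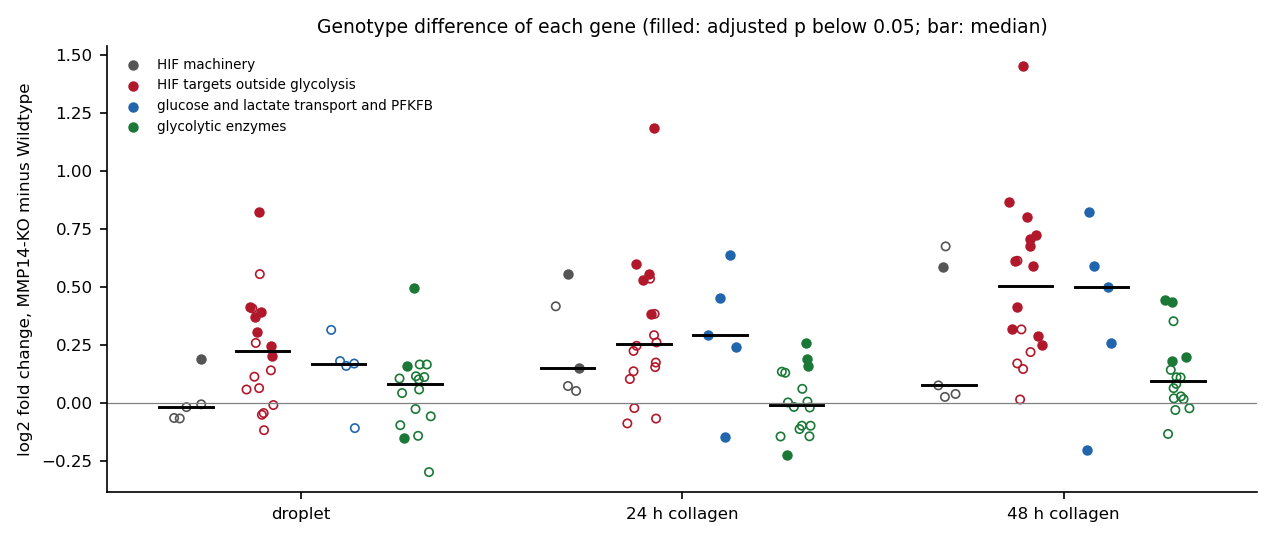
log2 fold change of MMP14-KO against Wildtype (y axis) of each gene in droplets, at 24 h and at 48 h (x axis), coloured by role, filled where the adjusted p was under 0.05 by edgeR, with the median of each role as a bar. NDRG1 is the top point each time, and the medians of the HIF targets lie above those of the glycolytic enzymes in all 3 conditions.

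In droplets, the largest genotype difference was that of NDRG1, at 0.82 (SE 0.23, adjusted p = 0.0265) by edgeR. Its 3 MMP14-KO libraries were all above the 3 Wildtype libraries, but the call was lost without any 1 of the 6 droplet libraries (adjusted p = 0.0594 to 0.0906, edgeR). PGK1, the first ATP-yielding enzyme of glycolysis, had 1087, 1076 and 1175 CPM in Wildtype and 1519, 1604 and 1585 CPM in MMP14-KO droplets. At 24 h it had 1155, 1115 and 1066 CPM in Wildtype against 1389, 1340.4 and 1257 CPM in MMP14-KO spheroids, and at 48 h 1162, 1125 and 1007 against 1489, 1706 and 1282 CPM. The genotypes did not overlap in any condition, and the log2 differences were 0.50 (SE 0.077, adjusted p = 8.99e-05), 0.26 (SE 0.077, adjusted p = 0.0148) and 0.44 (SE 0.077, adjusted p = 2.19e-04) by edgeR. MXI1 was higher by 0.42 and KDM3A by 0.39 in droplets. BNIP3, a mitophagy receptor, had 337, 312 and 362 CPM in Wildtype and 410.3, 426 and 413 CPM in MMP14-KO droplets (log2 difference 0.31). P4HA1 (0.37), AK4 (0.25), BNIP3L (0.20), EGLN1 (0.19) and LDHA (0.16) were also higher, and HK1 was lower (-0.15, adjusted p = 0.041, edgeR). The HK1 call was lost with library totals (adjusted p = 0.0671), without the filter (0.125) and with only the groups compared (0.0649), by edgeR. HIF1A and EPAS1 did not pass the test in droplets (-0.017 and -0.0052). Of the 11 calls, those of KDM3A, MXI1 and PGK1 held whichever of the 18 libraries was left out. The count fell from 11 to 4 without Wildtype droplet replicate 2, to 7 without MMP14-KO droplet replicate 2 and to 6 without MMP14-KO droplet replicate 3, and that of the HIF targets from 7 to 2 and to 4 without the first and the last of these. The share of mitochondrially encoded RNA was lower in all 3 MMP14-KO droplet libraries than in all Wildtype ones, and its part in the result was not tested.

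At 24 h in collagen the genotypes differed in both HIF targets and transport genes. NDRG1 was higher by 1.18 (SE 0.23, adjusted p = 0.00221), SLC2A3 by 0.64 (SE 0.13, adjusted p = 0.0021), MXI1 by 0.60 (SE 0.088, adjusted p = 4.65e-05) and DDIT4 by 0.56 (SE 0.14, adjusted p = 0.00745) in MMP14-KO spheroids (edgeR). EPAS1 was higher by 0.56, KDM3A by 0.53 and BHLHE40 by 0.38. PFKFB4, PFKFB3 and SLC16A3 were higher by 0.45, 0.29 and 0.24, and HIF1A by 0.15. PGK1, PKM and ENO1 were the glycolytic enzymes that were higher, by 0.26, 0.19 and 0.16. PGAM1, the mutase after PGK1, had 764, 783 and 789 CPM in Wildtype and 686, 654 and 661 CPM in MMP14-KO spheroids at 24 h, with no overlap, and was lower by 0.22 on the log2 scale (adjusted p = 0.00237, edgeR). Its droplet values were 761, 738 and 771 against 678, 734 and 714 CPM and its 48 h values 826, 795 and 757 against 769, 720.2 and 679 CPM, and neither difference was called. SLC2A1 was lower (-0.15), a call lost under library-total scaling (adjusted p = 0.157, edgeR). Calls that held whichever library was left out were those of EPAS1, NDRG1, KDM3A, MXI1, DDIT4, SLC2A3, PFKFB4 and PGAM1. The count of 16 became 10 and 8 without Wildtype 24 h replicates 2 and 3 and 9 without MMP14-KO 24 h replicate 1. Higher HIF targets numbered 8 without Wildtype 24 h replicate 1 and 9 without MMP14-KO 48 h replicate 2, which is outside this comparison but in the shared fit, 10 with library totals and 11 without the filter. The 3 higher glycolytic enzymes became 0 without Wildtype 24 h replicate 3 or MMP14-KO 24 h replicate 1 and 1 without Wildtype 24 h replicate 2 or MMP14-KO 24 h replicate 2. The 4 transport and PFKFB genes became 2 without Wildtype 24 h replicate 3 or MMP14-KO 24 h replicate 1.

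At 48 h the genotype difference covered the most genes. NDRG1 was higher by 1.45 (SE 0.23, adjusted p = 6.12e-04), PFKFB4 by 0.82 (SE 0.12, adjusted p = 1.00e-04), DDIT4 by 0.80 (SE 0.14, adjusted p = 7.16e-04) and MXI1 by 0.72 (SE 0.089, adjusted p = 7.11e-06) in MMP14-KO spheroids (edgeR). For each of these 4 genes the lowest MMP14-KO library was above the highest Wildtype library. As the test on these libraries picked the 4 genes, this adds no support. CA9 was higher by 0.86, from 2.23 ± 0.526 to 4.07 ± 1.36 CPM (SD, n = 3), a low level. KDM3A (0.71), ADM, which encodes a vasodilator peptide (0.68), BHLHE40 (0.61), ANGPTL4 (0.59), P4HA1 (0.41), VEGFA (0.32), PDK1 (0.29) and AK4 (0.25) complete the 12 HIF targets. EPAS1 was higher by 0.59, SLC2A3 by 0.59, PFKFB3 by 0.50 and SLC16A3 by 0.26. The 4 glycolytic enzymes were PGK1, ENO2 (0.44), ALDOA (0.20) and PKM (0.18). SLC2A1 was again lower, by 0.20 on the log2 scale (adjusted p = 0.00406, edgeR). CA12 and EGLN3 had differences of 0.61 and 0.67 that did not pass (adjusted p = 0.0803 and 0.0619, edgeR). Calls of CA9, VEGFA, ANGPTL4, PDK1, SLC16A3, ALDOA and PKM were each lost in at least 1 fit with a library left out. Of these, CA9, VEGFA, ANGPTL4 and PDK1 were each lost without MMP14-KO 48 h replicate 2 and without Wildtype 48 h replicate 3. The higher glycolytic enzymes numbered 2 without Wildtype 48 h replicate 3 and 7 without MMP14-KO 48 h replicate 3.

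Whether collagen changed these genes differently in the 2 genotypes was tested by interaction terms. At 24 h 2 of 44 genes passed (7.41% of all genes tested, either direction), and at 48 h 3 passed (6.79% of all genes). EPAS1 fell less in MMP14-KO than in Wildtype spheroids, by 0.56 (SE 0.15, adjusted p = 0.0338) at 24 h and 0.59 (SE 0.15, adjusted p = 0.0309) at 48 h on the log2 scale (edgeR). PKM also fell less, by 0.33 (SE 0.087, adjusted p = 0.0251) and 0.32 (SE 0.087, adjusted p = 0.0305). The change of VEGFA at 48 h was more positive in MMP14-KO spheroids, by 0.43 (SE 0.13, adjusted p = 0.0487). These 5 calls were each lost in several fits with a library left out, with adjusted p up to 0.147 (edgeR). The count at 24 h was 0 without Wildtype droplet replicate 1 or 2, MMP14-KO droplet replicate 1 or 3, Wildtype 24 h replicate 2 or 3 or MMP14-KO 24 h replicate 1. It was 1 without MMP14-KO 24 h replicate 2 or MMP14-KO 48 h replicate 3, 4 without Wildtype droplet replicate 3 and 5 without Wildtype 24 h replicate 1. The count at 48 h was 0 without Wildtype droplet replicate 1 or 2, MMP14-KO droplet replicate 1 or 3 or Wildtype 48 h replicate 3, 1 without MMP14-KO 48 h replicate 1 or 2, and 5 without MMP14-KO 48 h replicate 3. NDRG1, which differed most between the genotypes, had interaction terms of 0.36 and 0.63 that did not pass (adjusted p = 0.549 and 0.256, edgeR). The genotype difference at 48 h against that at 24 h gave 0 of 44 and 0 of all genes (0%) by edgeR, with 8 of 44 and 1107 of 17030 genes (6.5%) at an unadjusted p under 0.05, and 10 of all genes adjusted by DESeq2.

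Within a group, HIF targets were often high or low in the same library. At 48 h in MMP14-KO spheroids, replicate 2 had the highest value of the 3 libraries for 16 of 18 HIF targets and replicate 3 the lowest for 16. The glycolytic enzymes there were highest in replicate 1 for 13 of 16 and lowest in replicate 3 for 15. In Wildtype spheroids at 24 h, replicate 1 was the highest for 17 of 18 HIF targets, and at 48 h replicate 3 was the lowest for 17 of 18. NDRG1 shows the width of this spread, at 951 ± 324 CPM (SD, n = 3) in MMP14-KO spheroids at 48 h. In MMP14-KO droplets no replicate was highest for more than 7 of 18. The members of 1 library share its preparation, so these counts describe libraries and are not tests. The same counts were not made over all genes tested, so they do not show whether this order is particular to these genes.

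Genes of the same pathways outside the 44 were read from further lists. Of 43 other HIF targets tested (46 listed), 11 rose and 14 fell in Wildtype spheroids at 24 h (25.6 and 32.6% of the list), close to the 27.8 and 28.7% of all genes tested. At 48 h in Wildtype spheroids 25.6% rose and 32.6% fell, also near the shares of all genes (27.7 and 27.5%). In MMP14-KO spheroids 23.3% rose and 34.9% fell at 24 h (25.5 and 25.7% of all genes). At 48 h 30.2% rose and 23.3% fell there (25.8 and 23.6% of all genes). In MMP14-KO against Wildtype, 13 were higher and 1 lower in droplets (30.2 and 2.33%, against 7.7 and 9.7% of all genes). The counts were 10 and 5 at 24 h (23.3 and 11.6%, against 13.7 and 15.7%) and 16 and 4 at 48 h (37.2 and 9.3%, against 14.4 and 15.1%), with medians of 0.15, 0.053 and 0.19. STC1 and STC2, secreted stanniocalcins, were higher in MMP14-KO spheroids, by 1.04 and 1.10 in droplets and 0.97 and 1.16 at 48 h. Of 14 HIF pathway regulators tested, 3 rose and 7 fell in Wildtype spheroids at 24 h, against 27.8 and 28.7% of all genes. CITED2, a HIF-induced inhibitor of HIF coactivation, rose from 107 ± 7.56 to 183 ± 16.4 CPM, and VHL, which binds hydroxylated HIF alpha for degradation, fell at 48 h (-0.38). ARNT2, a paralogue of ARNT, was lower in MMP14-KO spheroids in all 3 conditions (-0.48, -0.48 and -0.51).

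Of 15 genes of pyruvate fate, 4 rose and 5 fell in Wildtype spheroids at 24 h (26.7 and 33.3%), close to the shares of all genes (27.8 and 28.7%), which are also the background of the counts at 24 h that follow. PDK4, a kinase that shuts pyruvate out of the mitochondrial oxidation step, fell from 87.9 ± 9.16 CPM in Wildtype droplets to 16.8 ± 2.16 at 24 h (SD, n = 3; log2 fold change -2.39, and -2.87 at 48 h). The log2 fold changes of PDK4 in MMP14-KO spheroids were -1.59 and -2.26, and its fall was smaller there by 0.80 (SE 0.13, adjusted p = 0.0024) at 24 h, an interaction term of edgeR. Its HIF-induced relative PDK1, a member of the 44, had group means of 24.2 to 30.9 CPM. Of 20 other glycolysis and glycogen genes, 6 rose and 10 fell in Wildtype spheroids at 24 h, among them ENO3, the muscle enolase, which rose from 4.72 ± 1.25 to 12.3 ± 1.11 CPM (SD, n = 3). SLC2A10, a further sugar transporter, was higher in MMP14-KO spheroids in all 3 conditions, by 1.22 in droplets. In the pentose phosphate pathway, 4 of 8 rose and 4 fell in Wildtype spheroids at 24 h. Of 3 gluconeogenesis genes, PCK2 rose by 1.00 in Wildtype spheroids at 24 h, and FBP1, which reverses the phosphofructokinase step, was lower in MMP14-KO spheroids in all conditions (-0.82, -0.49 and -0.88). In MMP14-KO against Wildtype at 48 h, where 14.4% of all genes were higher and 15.1% lower, 2 of 15 genes of pyruvate fate were higher and 5 lower (13.3 and 33.3%). Of the 20 other glycolysis and glycogen genes 3 were higher and 3 lower, near the shares of all genes. In the pentose phosphate pathway 0 of 8 were higher and 2 lower, in gluconeogenesis 0 of 3 and 1, and among the HIF pathway regulators 1 of 14 and 4.

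Exons of HIF1A, VEGFA, DDIT4, BHLHE40, P4HA1, P4HA2, SLC2A1, ENO1, TPI1, GAPDH, PFKM, CA9, MXI1, ANGPTL4 and several others overlap a gene on the opposite strand in GENCODE 29. Whether reads were counted by strand is not given in the sources used here, so those of such pairs may not be separable. Exons of PGK1 (with ATP7A), PFKFB4 (with UCN2), HIF1A, SLC2A1, SLC16A3, GPI, PFKP and ALDOA also overlap a gene on the same strand. Counting by strand would not separate reads of these. Annotated pseudogenes of the members held at most 0.784% of the counts shared between a gene and its pseudogenes (AK4).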

How the data were processed

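The table holds expected counts per gene, which the authors deposited; per the submitters' processing notes, reads were trimmed with cutadapt 2.3, aligned with STAR 2.7.8a to GRCh38 and counted with RSEM 1.3.3. No annotation release or strand setting is given in the sources used here. Expected counts were rounded to whole numbers, genes with low counts were removed with filterByExpr (minimum count 10), and 1 coefficient per group was fitted to all 18 libraries with edgeR 4.0.16 (TMM, robust quasi-likelihood, 12 residual degrees of freedom). The p-values were Benjamini-Hochberg adjusted within each comparison over 17030 genes. The SE is the log2 fold change over the root of the F statistic. Levels per kilobase use the principal transcript of GENCODE 29. The edgeR steps were tested on simulated counts of the droplet groups of both genotypes alone. That test did not cover the fit of all 18 libraries, the interaction terms or the promoter search. Many of the changes reported here are smaller than those simulated. The members and lists were chosen with earlier results of these data known. Values in every library are given by rule for the passing members with the largest change in each comparison (up to 4 each way, at least 5 CPM in the higher group) and for the isoenzyme pairs, and up to 4 genes a further list and comparison may be named. Other values of single members, and the printed promoters, were chosen after their values were seen. DESeq2 1.42.0, other scalings, no filter, fewer samples and a replicate block were alternatives.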

Additional observations from a re-analysis of the deposited data

Results flagged for a closer look

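The genotype effect differed between collagen and droplets, by an interaction term in edgeR's quasi-likelihood test, for 3 of the 44 genes. By time, 2 of 44 passed at 24 h, where 7.41% of all genes tested did, and 3 at 48 h, where 6.79% did. At either time, 0 of these calls held in all 18 fits with a library left out. EPAS1 had a genotype difference that was larger in collagen than in droplets by 0.562 on the log2 scale at 24 h (adjusted p = 0.0338) and by 0.59 at 48 h (adjusted p = 0.0309). The term of PKM was positive too, at 0.331 at 24 h (adjusted p = 0.0251) and 0.323 at 48 h (adjusted p = 0.0305). Here the sign of the difference changed. The PKM mean was lower in MMP14-KO than in Wildtype droplets (3248 against 3581 CPM) and higher in collagen (2906 against 2548 CPM at 24 h). VEGFA passed only at 48 h, with 0.434 (adjusted p = 0.0487). Its mean was also lower in MMP14-KO than in Wildtype droplets (510 against 553 CPM) and higher at 48 h (699 against 561 CPM). Neither the PKM nor the VEGFA difference in droplets was called. Both times are set against the same droplet libraries.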

How the results depend on the processing

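Of the 169 calls of single members, 165 remained with RLE scaling, 162 with library totals, 168 with DESeq2, 159 without the filter, 156 when only the compared groups were fitted and 169 with a replicate block, and 0 reversed under these or any left-out library. With 1 library left out, 145 to 163 remained. Counts of members called moved by over 1.5 times in several comparisons, also with 1 library left out, as given below. For MMP14-KO at 48 h against 24 h, the count of 3 became 9 without the filter and 1 with only the groups compared. The interaction at 24 h, 2 as reported, gave 4 with DESeq2 and 9 without the filter. That at 48 h, 3 as reported, gave 5 with library totals, 6 with DESeq2, 16 without the filter and 6 with the replicate block, and the change of the genotype difference from 24 h to 48 h gave 2 without the filter in place of 0. The cause was not tested.

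Over the 18 fits with a library left out, the count ran from 4 to 8 for Wildtype and 0 to 4 for MMP14-KO spheroids at 48 h against 24 h. For the genotypes it ran from 4 to 13 in droplets, 8 to 20 at 24 h and 17 to 30 at 48 h, and for the interactions from 0 to 5 at each time. With the replicate block the genotype counts were 15, 19 and 25. The labels do not say whether replicate numbers pair the samples. Correlations of same-numbered deviations ran from -0.0701 to 0.137, and 7 of 18 libraries correlated best with their own number. These values do not settle whether the samples were paired. With library totals the higher share of all calls went from 54.5 to 44.2% for MMP14-KO at 48 h against 24 h, from 44.8 to 59.0% for the interaction at 24 h and from 59.0 to 73.9% at 48 h.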
